A study of Mus musculus with 16 samples.

Results

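The genes described here are 9 genes that mark B cells, plasma cells and IgA: Igha, Ighm, Igkc, Jchain, Mzb1, Cd79a, Cd79b, Ms4a1 and Pigr. They were taken by gene name from a table of 41411 genes, and all 9 were present in it. A filter on low values (at least 5 in at least 4 of the 16 libraries) kept 16748 genes for testing, among them 6 of the 9: Igha, Ighm, Jchain, Mzb1, Cd79a and Cd79b. Igkc, Ms4a1 and Pigr did not pass it and are described by their values.

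RNA came from the esophagus of C57BL/6 mice and was measured with CEL-Seq, which reads a tag near the 3′ end of each transcript. Experimental eosinophilic esophagitis, an allergic inflammation of the esophagus, was modelled with an oxazolone, the contact allergen named OXA in the labels. The 16 libraries form 4 groups of 4: wild-type (WT) mice given vehicle, WT mice given OXA, mice lacking Il13ra1 (Il13ra1-/-, here KO) given vehicle, and KO mice given OXA. Il13ra1 encodes the receptor chain that, together with that of Il4ra, forms a receptor for both IL-13 and IL-4. The labels name no promoter, clone, age, sex or batch, and do not say whether each library is 1 animal, so the p-values below measure the spread between these libraries only.

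IgM, IgA and the IgG classes share their light chains and differ in the heavy-chain constant region, which is encoded by Ighm, Igha and the Ighg genes. B cells carry their immunoglobulin in the membrane together with Cd79a and Cd79b, whereas plasma cells secrete it. At mucosal surfaces IgA dimers and IgM pentamers are closed by the J chain and carried across the epithelium by the polymeric immunoglobulin receptor, the product of Pigr.

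The feature that lets IgA and IgM take up the J chain is visible in their 3′ coding sequence, shown here beside the IgG genes that lack it. The last 60 coding bases of each secreted transcript are printed 5′ to 3′ from GENCODE M21 (GRCm38, minus strand of chromosome 12). Capitals mark a cysteine codon followed by a tyrosine codon at the very end.
Igha: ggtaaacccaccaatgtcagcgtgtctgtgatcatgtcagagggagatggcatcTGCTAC
Ighm: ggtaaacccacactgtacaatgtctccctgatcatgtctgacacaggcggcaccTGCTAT
Ighg1: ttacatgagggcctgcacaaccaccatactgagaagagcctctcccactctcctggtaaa
Ighg2b: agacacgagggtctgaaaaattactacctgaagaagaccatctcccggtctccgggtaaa

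The Igha stretch (chr12:113258771-113258830) and the Ighm stretch (chr12:113420870-113420929) are the secretory tailpieces, and their exons end at the first printed base in the annotated membrane forms (113258830 and 113420929). The tailpieces of Igha and Ighm shared 41 of 60 bases, position by position. The ends of Ighg1 (chr12:113328979-113329038) and Ighg2b (chr12:113306392-113306451) also shared 41 of 60. They stop at the letters ggtaaa with which the tailpieces begin, so they are not the same stretch of the heavy chain as the tailpieces. No cysteine codon stood in the last 60 bases of Ighg1 or of Ighg2b. Values below are per gene and do not separate membrane from secreted forms.

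Library depth ranged from 5611227 to 9551179 reads with vehicle and 20174102 to 27342877 with OXA in WT, and from 7913040 to 16528455 with vehicle and 8823796 to 15202957 with OXA in KO. The deepest group is thus WT OXA, in which several members were highest, and the values were already scaled for depth by the authors. Il13ra1 was between 134 and 226 in WT vehicle and between 31.2 and 64.7 in KO vehicle. Under OXA it was between 584 and 874 in WT and between 44 and 174 in KO, the highest KO value being that of KO OXA replicate 2, so within each treatment the labelled genotypes did not overlap for this gene. The squamous keratin genes Krt4, Krt13 and Krt5, defining markers of the labelled tissue, were high in all 16 libraries.

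Among the KO libraries, KO vehicle replicate 2 and KO OXA replicate 2 stood apart in B-lineage genes, and results that rest on them are given with and without them. Both were picked after these values were seen. Leaving them out narrows the KO spread of the genes high in them, so for such genes these fits are no independent check. The value of Ighm was 4040 in KO vehicle replicate 2, against 70.2, 149 and 141 in the other 3 libraries of that group. In KO OXA replicate 2 it was 3763, against 196, 203 and 158. Both libraries exceeded every WT OXA library for this gene.

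The pair differed in kind. KO vehicle replicate 2 had the highest value of all 16 libraries for 12 of 20 B cell identity genes, whereas KO OXA replicate 2 had it for 1 of 20. Pax5, the transcription factor that holds B cell identity, was 77.7 in KO vehicle replicate 2 and 1.19 in KO OXA replicate 2.

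Ighd, the constant gene of the IgD that naive B cells carry, was 136 in KO vehicle replicate 2 and between 0 and 8.35 in the other 15 libraries. Cxcl13, the chemokine that draws B cells into follicles, was 329 there and at most 78.8 elsewhere. Among genes picked after their values were seen, Bank1 (445), Cr2 (45.7) and Glycam1 (9.49, at 0 in the other 15), a product of lymph node vessels, were also highest in KO vehicle replicate 2. KO OXA replicate 2 instead had the highest Jchain, Mzb1 and Ighg1. It also had the highest Tnfrsf17, the gene of the plasma cell survival receptor BCMA, at a low value of 11.9 against 8.24 in WT OXA replicate 3. Of the 16 genes in the plasma cell and secretory list, Tnfrsf17 was the only 1 highest in that library. The lymphoid tissue list summed to 1129 in KO vehicle replicate 2 and to 364 to 477 in the other KO vehicle libraries, with 2 of its 11 genes at 0 in replicate 2. Such sums were not particular to that library, since the list came to 1095 in WT OXA replicate 1, 911 in WT OXA replicate 3 and 985 in KO OXA replicate 1. The part of such tissue in the members' values was not tested.

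**Figure D1:**
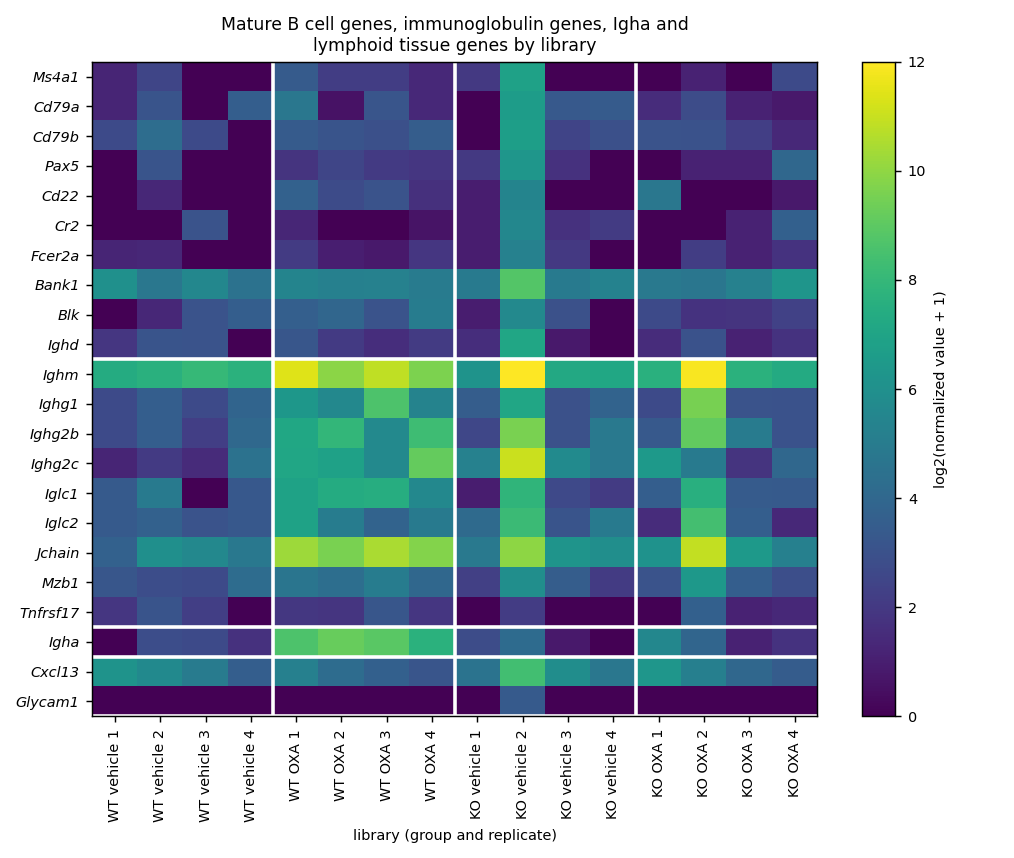
Heat map of log2(normalized value + 1), from 0 (dark) to 12 (yellow), for mature B cell genes, immunoglobulin and secretion genes, Igha, and lymphoid tissue genes (rows, in blocks split by white lines) in the 16 libraries (columns, in 4 groups). KO vehicle replicate 2 is bright in the first 2 blocks and KO OXA replicate 2 only in the second, while Igha is bright across the 4 WT OXA libraries; several rows were chosen after their values were seen.

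The question behind the comparisons is how OXA changed these genes in WT mice and whether it did so in mice without Il13ra1. Igha, the constant gene of IgA, was nearly undetected in esophagus without OXA. In WT vehicle its values were 0, 6.18, 5.47 and 2.23, from 8 reads in the 4 libraries together. In WT OXA they were 397, 598, 494 and 199, from 3887 reads. All 4 WT OXA libraries lay above all 4 vehicle libraries, with group means of 422 ± 170 and 3.47 ± 2.88 (SD, n = 4), a ratio of 122.

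Differences are given as log2(value + 1), a scale that makes the change of a low gene look smaller than it is. Igha rose by 6.81 ± 0.94 on it (SE, adjusted p = 1.93e-05, limma with the Benjamini-Hochberg method over the 16748 genes). The exact two-sided permutation test over the 8 libraries gave 0.0286, the smallest p that 4 against 4 allows. The summed level of squamous epithelial genes was lower in the same WT OXA libraries. The 6 genes of that list summed to between 1265830 and 1867920 in WT vehicle and between 436985 and 721864 in WT OXA, and to at least 1239810 in every KO library, none being at 0 in any. Most of the sum was Krt4, whose WT difference was -1.75 ± 0.68 (log2, adjusted p = 0.0532, limma, and 8.71e-05 with edgeR). Of the 6, Krt13 and Krt15 fell, Krt14 rose and 3 did not pass with limma. The part of this shift in the members' values was not tested.

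The KO libraries did not show this. Igha was 5.85, 17.3, 0.76 and 0 in KO vehicle and 45.8, 14.3, 1.24 and 2.36 in KO OXA. The KO groups overlapped, and the highest of all 8 KO values, in KO OXA replicate 1, was less than the lowest WT OXA value, 199. OXA changed Igha in KO by 1.15 ± 0.94 (log2, adjusted p = 0.627, limma), a difference within the spread of the libraries. The KO effect minus the WT effect was -5.65 ± 1.33 (log2, adjusted p = 0.00608, limma). Under OXA, KO was lower than WT by -5.52 ± 0.94 (log2, adjusted p = 0.000195, limma), with WT OXA at 26.5 times the KO OXA mean and no overlap, an order that 15.3% of all genes tested showed.

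The 2 KO libraries that stood apart in Ighm had Igha at 17.3 (KO vehicle) and 14.3 (KO OXA), below every WT OXA library. The former was the highest of its group, and the latter was exceeded in its group only by replicate 1, at 45.8. Without both, the difference between the KO and WT effects was -5.18 (adjusted p = 0.0151, limma) and the difference under OXA was -5.79 (adjusted p = 0.000261, limma). In bulk tissue, fewer cells of a type and less RNA per cell cannot be told apart, and this holds for every member.

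**Figure D2:**
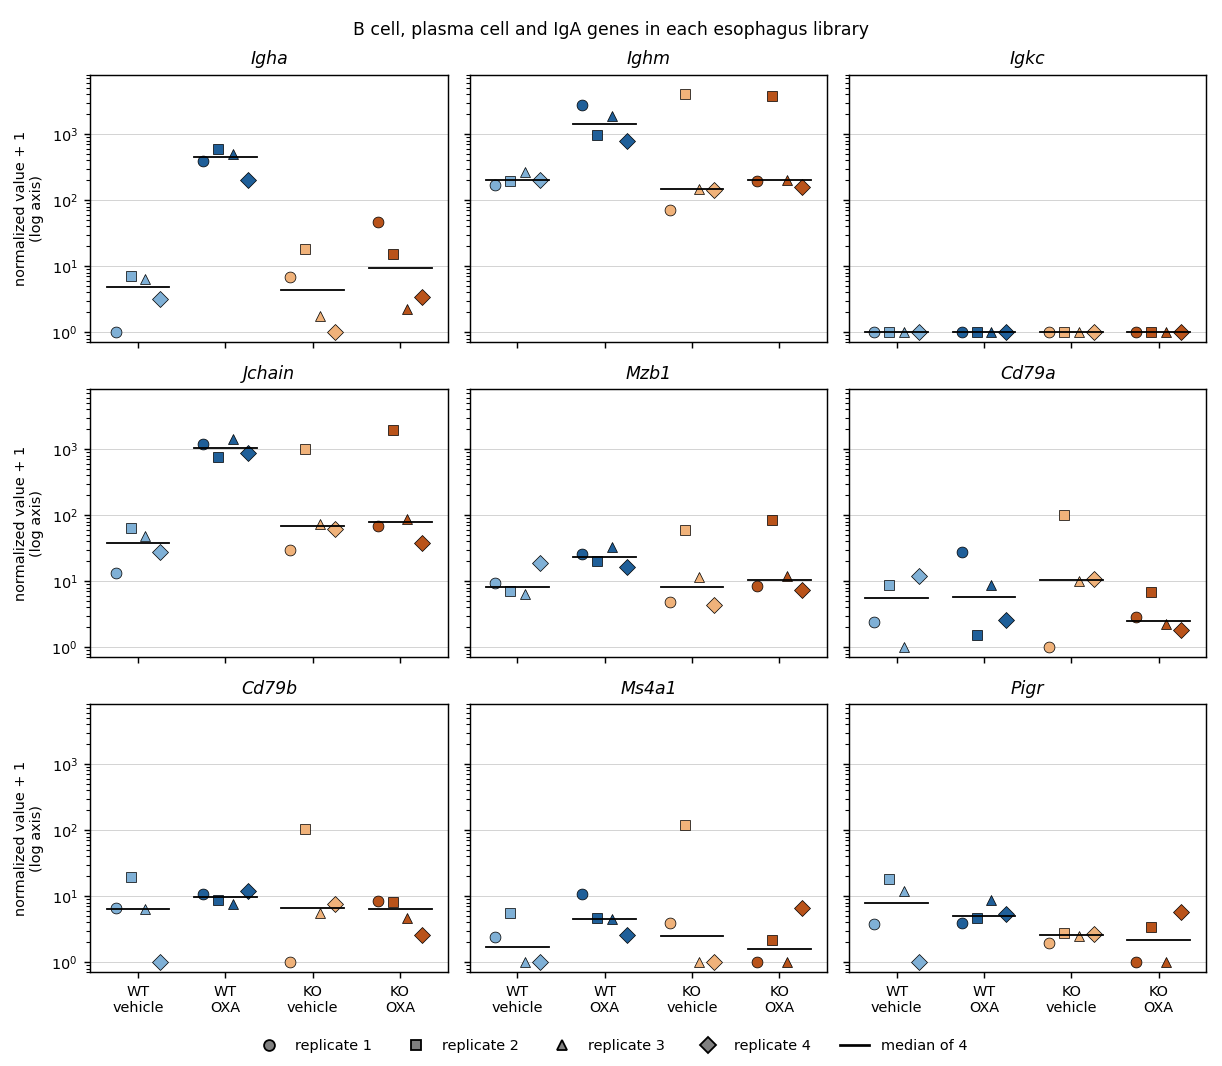
Normalized value + 1 on a log axis for each of the 9 genes (panels) in each library, by group; symbols are replicates 1 to 4 and the black line is the median of 4. For Igha the 4 WT OXA libraries sit between 199 and 598 and all others at or below 45.8, for Ighm and Jchain replicate 2 of both KO groups joins the WT OXA range, and Igkc is 0 throughout.

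Ighm, the constant gene of IgM and the isotype of B cells before class switching, was measured in every library. It was 167, 196, 265 and 200.6 in WT vehicle and 2749, 973, 1851 and 782 in WT OXA. The WT groups did not overlap, with a ratio of means of 7.68, and the rise was 2.78 ± 0.98 (log2, adjusted p = 0.0343, limma). This call was lost without any 1 of the 4 WT vehicle libraries, or without WT OXA replicate 1 or 3 (adjusted p = 0.0524 to 0.0904, limma). It was also lost with edgeR (0.0515), with no filter (0.0767) and with the robust fit (0.0975). Without both KO libraries that stood apart, which hold the highest Ighm values and were picked on such values, the adjusted p was 7.59e-06 (limma).

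In KO, Ighm was 70.2, 4040, 149 and 141 under vehicle and 196, 3763, 203 and 158 under OXA. OXA changed it by 0.49 ± 0.98 (log2, adjusted p = 0.804, limma), so that no change was detected. The KO and WT effects differed by -2.28 ± 1.39 (log2, adjusted p = 0.273, limma), which did not pass. Under OXA, KO minus WT was -1.83 ± 0.98 (log2, adjusted p = 0.179, limma). Without KO OXA replicate 2 that difference was -2.92 and passed (adjusted p = 0.0167, limma), and without both libraries that stood apart the difference between the effects also passed at -2.08 (adjusted p = 0.00987, limma). These fits leave out libraries picked for high values of genes such as Ighm, so they are no independent check.

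Jchain, which encodes the joining chain of polymeric IgA and IgM, was highest by mean in WT OXA, as was Ighm. Its values were 12.4, 61.8, 47.4 and 26.7 in WT vehicle and 1203, 764, 1423 and 865 in WT OXA. Every WT OXA library was more than any WT vehicle library, with a ratio of means of 28.7, and the rise was 4.98 ± 0.99 (log2, adjusted p = 0.000704, limma). In KO it was 28.3, 986, 72.3 and 60.7 under vehicle and 67.8, 1928, 85.4 and 36.2 under OXA. Replicate 2 of each KO group was in or above the WT OXA range, and the other 6 KO libraries were at most 85.4.

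OXA changed Jchain in KO by 0.43 ± 0.99 (log2, adjusted p = 0.876, limma). The KO effect was smaller than the WT effect by -4.56 ± 1.40 (log2, adjusted p = 0.0296, limma), and under OXA KO was lower than WT by -2.84 ± 0.99 (log2, adjusted p = 0.0378, limma). Both calls rested on small margins. The first was lost when 1 library was left out in 7 cases, namely number 1 of WT vehicle, 1 and 3 of WT OXA, 2 of KO vehicle and 1, 3 and 4 of KO OXA (adjusted p = 0.0503 to 0.0640, limma), and with edgeR (0.0875), DESeq2 (0.0729), no filter (0.0686) and the robust fit (0.0815). The second was lost without any 1 library of WT OXA, or without number 1, 3 or 4 of KO OXA (adjusted p = 0.0561 to 0.118, limma), and with no filter (0.0840) and the robust fit (0.0979). Its groups overlapped through KO OXA replicate 2, and edgeR gave an adjusted p of 0.484 and DESeq2 of 0.554. Without both KO libraries that stood apart the 2 differences were -4.74 (adjusted p = 0.000155, limma) and -4.09 (adjusted p = 6.06e-06, limma). Those libraries were picked for high values of genes such as Jchain, so the smaller p-values are no independent check.

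Mzb1, an endoplasmic reticulum chaperone of B and plasma cells that helps assemble secreted immunoglobulin, was low throughout. It was 8.26, 6.18, 5.47 and 17.8 in WT vehicle and 24.7, 18.99, 32.2 and 15.1 in WT OXA, so that the groups overlapped in 1 library on each side. The WT difference of 1.27 ± 0.79 (log2, adjusted p = 0.229, limma) did not pass. In KO it was 3.9, 59.6, 10.7 and 3.28 under vehicle and 7.33, 84.5, 11.1 and 6.30 under OXA, again with replicate 2 highest in both.

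Cd79a and Cd79b encode the signalling chains of the B cell receptor. Cd79a was 1.38, 7.73, 0 and 11.1 in WT vehicle and 26.5, 0.51, 7.85 and 1.62 in WT OXA, and the groups overlapped. Cd79b was 5.51, 18.5, 5.47 and 0 in WT vehicle and 9.80, 7.70, 6.67 and 10.8 in WT OXA, also with overlap. Neither passed the test for OXA in WT, at 0.48 ± 1.16 (log2, adjusted p = 0.783, limma) for Cd79a and 0.84 ± 1.05 (log2, adjusted p = 0.575, limma) for Cd79b.

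In KO vehicle, Cd79a was 0, 99.2, 9.13 and 9.85 and Cd79b was 0, 104, 4.57 and 6.57. Replicate 2 was the highest of all 16 libraries for both genes. In KO OXA, Cd79a was 1.83, 5.95, 1.24 and 0.79 and Cd79b was 7.33, 7.14, 3.71 and 1.58. KO OXA replicate 2, with an Ighm of 3763, thus had Cd79a and Cd79b in the range of libraries with low Ighm.

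Ms4a1, which encodes the B cell surface protein CD20, was below 10 in 15 of the 16 libraries. It was 117 in KO vehicle replicate 2, against 2.92, 0 and 0 in the rest of that group. WT vehicle had 1.38, 4.64, 0 and 0, WT OXA had 9.80, 3.59, 3.53 and 1.62, and KO OXA had 0, 1.19, 0 and 5.52. At this depth no change with OXA was detectable, and with no filter on low values its WT difference was 1.36 ± 1.19 (log2, adjusted p = 0.528, limma).

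Igkc, the constant gene of the kappa light chain that most mouse antibodies carry, was listed at 0 in all 16 libraries. The 5 kappa joining segments were also at 0, and the 100 kappa variable segments held 24 reads in all. The lambda constant genes Iglc1, Iglc2 and Iglc3 were measured. Iglc1 was 9.64, 29.4, 0 and 8.91 in WT vehicle and 120, 168, 177 and 47.0 in WT OXA, and rose by 3.94 ± 1.23 (log2, adjusted p = 0.0184, limma). That call was lost when replicate 3 of either WT group was left out, and with edgeR or DESeq2 (adjusted p = 0.05002 to 0.0767 in these). Iglc2 was 9.64, 12.4, 7.30 and 8.91 in WT vehicle and 120, 31.8, 13.3 and 29.7 in WT OXA, without overlap, and its difference of 1.81 ± 1.20 (log2, adjusted p = 0.261, limma) did not pass. It passed without both KO libraries that stood apart (adjusted p = 0.0424, limma) and in a fit of the WT groups alone (0.0305). Iglc3, at 0 to 7.73 in WT vehicle and 2.05 to 30.1 in WT OXA, did not pass either (1.54 ± 1.16, adjusted p = 0.330, limma). Iglc2 and Iglc3 are near-identical in sequence, so the split of reads between this pair is uncertain. The level of kappa was therefore not described, and the members' light chains were followed through lambda alone.

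Pigr, the epithelial carrier of polymeric IgA and IgM, held 76 reads in the 16 libraries together. Among WT libraries it was 2.75, 17, 10.95 and 0 with vehicle and 2.90, 3.59, 7.85 and 4.32 with OXA. Among KO libraries it was 0.97, 1.73, 1.52 and 1.64 with vehicle and 0, 2.38, 0 and 4.73 with OXA. The vehicle and OXA groups overlapped in each genotype, and the genotypes overlapped under each treatment. The WT OXA libraries, where Igha was 199 to 598, had Pigr within the range of WT vehicle. With no filter on low values, its WT difference was 0.02 ± 0.81 (log2, adjusted p = 1, limma), so that no change was detectable at this depth.

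Counted together, 3 of the 6 members tested passed in WT, all 3 higher with OXA, where 34% of all genes tested passed and 18% were higher. The median difference of the 6 was 2.02, against 0.10 over all genes. The WT groups did not overlap for Igha, Ighm and Jchain, and 18.5% of all genes had WT OXA wholly above WT vehicle. In KO, 0 of 6 passed with limma, edgeR and DESeq2 and 0 had an unadjusted p under 0.05 with limma, where 1.9% of all genes passed with limma, 2.31% with edgeR and 4.3% with DESeq2. Their median difference was 0.46, against -0.01 over all genes.

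For the difference between the KO and WT effects, 2 of 6 passed (Igha and Jchain, both smaller in KO), where 17.8% of all genes passed and 7.67% were smaller in KO. Under OXA, the same 2 of 6 were lower in KO than in WT, where 27.6% of all genes passed and 12.9% were lower. Leaving out both KO libraries that stood apart, which were picked for high values of such genes, added Ighm to each, for 3 of 6. In that fit 6.44% and 12% of all genes were lower in KO. Under vehicle, 0 of 6 differed between KO and WT with limma, edgeR and DESeq2, 0 had an unadjusted p under 0.05 with limma, and 0.0597% of all genes passed with limma, 0.0418% with edgeR and 0.257% with DESeq2.

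**Figure D3:**
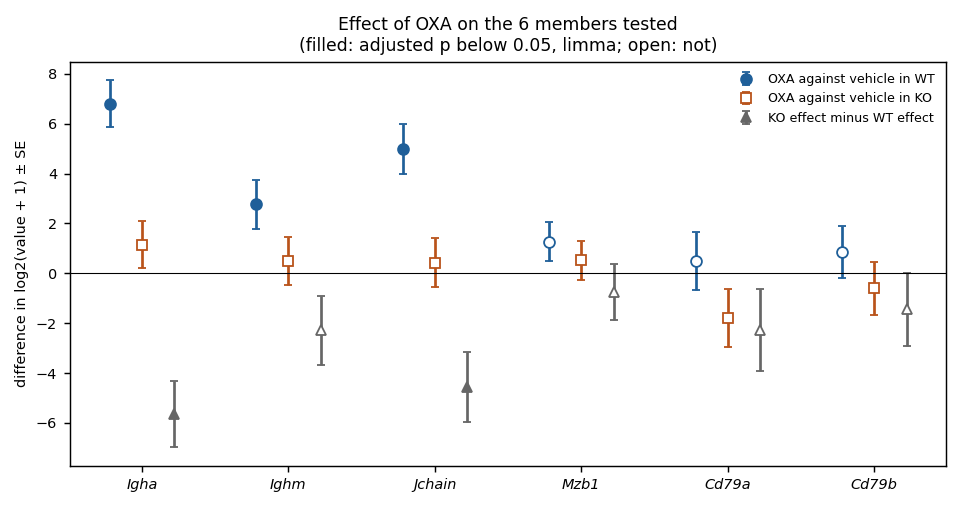
Difference in log2(value + 1) with its SE for the 6 members tested: OXA against vehicle in WT (blue circles), the same in KO (orange squares) and the KO effect minus the WT effect (grey triangles). Filled symbols passed the adjusted p threshold of 0.05 (limma), which they did for Igha, Ighm and Jchain in WT and for Igha and Jchain in the difference; all KO effects are open.

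The isotypes were then compared within each library, where scaling cancels, as shares of the reads on the 8 heavy-chain constant genes. Heavy-chain reads came to 13.8 to 22.4 RPM (reads scaled to the library total) in WT vehicle and 176 to 355 in WT OXA. They came to 591 in KO vehicle replicate 2, 410 in KO OXA replicate 2, and 10.5 to 21.5 in the other 6 KO libraries. Those 6 libraries and the WT vehicle libraries rest on 114 to 318 reads each, and the intervals given are 95% Wilson intervals, which cover counting error only.

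Igha took 11.3%, 30.2%, 17.4% and 10.4% of heavy-chain reads in the 4 WT OXA libraries. In WT vehicle it took 0 to 2.63%, where 0 of 132 reads in replicate 1 allows a share of up to 2.27% by a limit of 3 reads (Wilson upper bound 2.83%). KO vehicle replicate 2 had 20 Igha reads of 8395, or 0.238% (0.154 to 0.368%), and KO OXA replicate 2 had 12 of 4295, or 0.279% (0.16 to 0.488%). The 2 KO libraries with the most heavy-chain reads thus had shares of Igha less than those of every WT OXA library.

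KO OXA replicate 1 was the exception among KO libraries, with 25 Igha reads of 190, or 13.2% (9.07 to 18.7%), a share in the WT OXA range at a level of heavy-chain reads near that of vehicle. The other KO shares of Igha were 4.44% or less. By groups, the share of Igha in WT OXA did not overlap that in WT vehicle or KO vehicle, and it overlapped that in KO OXA through replicate 1.

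The IgG genes together took 10.4 to 48.7% of heavy-chain reads in WT OXA and 3.80 to 20.2% in WT vehicle. In KO vehicle they took 40.7%, 42.1%, 37.7% and 32.8%, above all 4 WT vehicle libraries, and in KO OXA 30%, 26%, 16.6% and 15.8%. Ighg2c, the C57BL/6 form of the IgG2a class, took 13.3 to 29.4% of heavy-chain reads in KO vehicle against 0.633 to 8.77% in WT vehicle. It was the largest IgG gene in KO vehicle replicates 1, 2 and 3 and equal to Ighg2b in replicate 4, at 17 reads each. Ighg2c was 38.0, 2132, 53.3 and 27.9 in KO vehicle and 1.38, 3.09, 1.82 and 22.3 in WT vehicle, an absence of overlap that 2.66% of all genes tested showed in this direction. The difference of 4.41 ± 1.16 (log2, adjusted p = 0.283, limma) did not pass. Ighe, the constant gene of IgE, the allergic isotype, had 1 read in the 16 libraries.

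**Figure D4:**
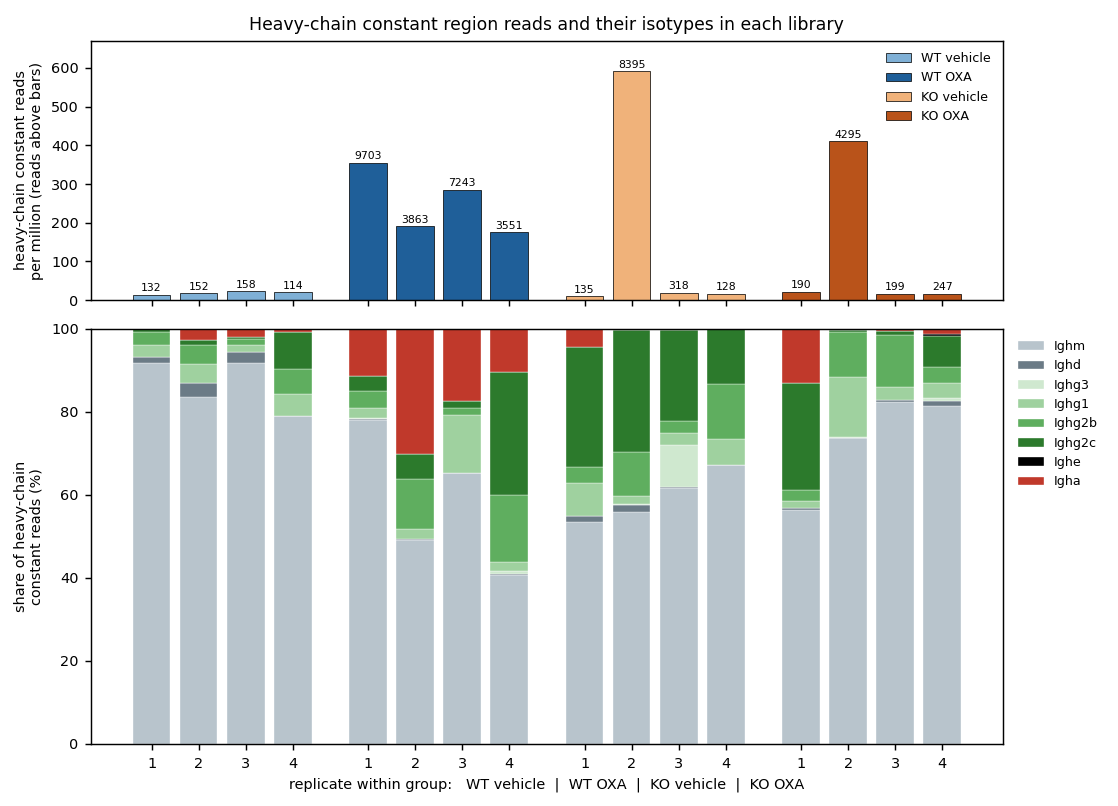
Top, heavy-chain constant reads as RPM for each library, with the number of reads above each bar; bottom, the share (%) of those reads on each heavy-chain constant gene, stacked to 100. Igha (red) takes 10.4 to 30.2% in the 4 WT OXA libraries and 13.2% of 190 reads in KO OXA replicate 1, and is hardly visible in replicate 2 of both KO groups despite their tall bars.

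Among the 12 immunoglobulin constant genes, which include 3 members, 10 were tested and 6 rose with OXA in WT: Igha, Ighm, Ighg1, Ighg2b, Ighg2c and Iglc1, where 18% of all genes tested rose. Their median difference over the 10 was 3.03. The count of 6 fell to 3 when replicate 3 of either WT group was left out, and to 4 when replicate 1 of either or replicate 2 of WT vehicle was. It included Ighg1 (3.29 ± 1.18, adjusted p = 0.0369, limma). Ighg2b was 5.51, 10.8, 3.65 and 15.6 in WT vehicle and 142, 242, 49.8 and 308 in WT OXA, and rose by 4.12 ± 1.27 (log2, adjusted p = 0.0169, limma). The IgG classes differed between WT OXA libraries in which was largest. Ighg1 was 396 in replicate 3 and 40.5 to 79.8 in the other 3, whereas Ighg2c was 571 in replicate 4 and 48.6 to 135 in the other 3.

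In KO, 0 of the 10 passed for OXA with limma, edgeR and DESeq2, and 1 had an unadjusted p under 0.05 with limma. Of all genes tested, 1.9% passed in KO with limma. The KO and WT effects differed for 2 of 10, Igha and Ighg2c, both with a KO effect below the WT effect. Of all genes tested, 17.8% passed and 7.67% had a KO effect below the WT effect. The difference for Ighg2c was -7.29 ± 1.64 (log2, adjusted p = 0.0047, limma). Its KO effect was a fall that did not pass, not a smaller rise. Ighg2c was 38.0, 2132, 53.3 and 27.9 in KO vehicle and 89.85, 29.77, 2.48 and 14.97 in KO OXA, so the KO groups overlapped. The value of 2132 came from KO vehicle replicate 2, which stood apart. KO was lower than WT under OXA for 1 of 10, Igha, where 12.9% of all genes tested were lower. KO OXA replicate 2 carried Ighg1 at 748 and Ighg2b at 547. Without it and KO vehicle replicate 2, the count lower in KO under OXA was 7 of 10, where 12% of all genes were lower. The effects then differed for 6 of 10, where 6.44% of all genes had a smaller effect in KO. Both libraries were picked for high values of such genes, so these counts are no independent check.

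Among B cell identity genes, 5 of 15 tested rose with OXA in WT (Blnk, Btk, Cd72, Cd83 and Fcmr), none fell, and the median was 1.21, where 18% of all genes tested rose and their median was 0.10. Btk and Cd72 are also expressed by myeloid cells, and Cd83 by mature dendritic cells. Fcmr, which encodes an Fc receptor for IgM, was 0 in all 4 WT vehicle libraries and 11.98, 14.9, 9.42 and 9.72 in WT OXA, and rose by 3.62 ± 0.83 (log2, adjusted p = 0.00216, limma), a size that depends on the added 1 since the vehicle group was at 0. Fcmr was 1.95, 20.7, 3.04 and 0 in KO vehicle and 0, 0, 0 and 1.58 in KO OXA, so the KO groups overlapped. The value of 20.7, in KO vehicle replicate 2, which stood apart, was the highest of all 16 libraries. The KO effect, a fall that did not pass, minus the WT effect was -5.28 ± 1.17 (log2, adjusted p = 0.00417, limma).

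In KO, 0 of 15 passed with limma and 3 had an unadjusted p under 0.05, while edgeR and DESeq2 each called 1 lower. Of all genes tested, 1.9% passed in KO with limma, 2.31% with edgeR and 4.3% with DESeq2. Cd72 was 0.97, 9.49, 6.85 and 0 in KO vehicle and 38.5, 38.1, 2.48 and 11.8 in KO OXA, overlapping, with a difference of 2.18 ± 0.85 (log2, adjusted p = 0.236, limma).

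The plasma cell and secretory list was mixed, with 5 of 15 tested higher and 2 lower with OXA in WT and a median of 0.60, where 34% of all genes tested passed and 18% rose. Those that rose were Cd38, Creld2, Edem1, Fkbp11 and Slamf7. Slamf7, a surface receptor of plasma cells that T cells and natural killer cells share, was 46.8, 26.3, 9.12 and 51.3 in WT vehicle and 136, 124, 146 and 170 in WT OXA. It rose by 2.32 ± 0.58 (log2, adjusted p = 0.00439, limma) in WT and by 3.26 ± 0.58 (log2, adjusted p = 0.00264, limma) in KO. It was the 1 gene of the list to pass in KO, where 1.9% of all genes tested passed. Without KO OXA replicate 4, 3 genes of the list passed in KO. Sdc1, which encodes syndecan-1 of plasma cells and of squamous epithelium, fell by 0.96 on the log2 scale in WT (SE 0.16, adjusted p = 0.000156, limma), from 2200 to 2788 in vehicle to 1042 to 1430 under OXA.

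The regulators Xbp1, Prdm1 and Irf4, which drive plasma cell differentiation but also act in other cells, did not pass in WT. Their differences were -0.06 ± 0.14 for Xbp1, -0.18 ± 0.19 for Prdm1 and 1.23 ± 0.68 for Irf4 on the log2 scale. Prdm1 was at least 367 and Xbp1 at least 975 in every library, vehicle included.

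Of genes that signal for IgA switching and plasma cell survival, 5 of 13 tested rose with OXA in WT (Cd40lg, Il10, Tgfbr1, Tgfbr2 and Tnfsf13b) and none fell, where 18% of all genes tested rose. Cd40lg was 0 in all 4 WT vehicle libraries and 5.44, 3.59, 11.8 and 0.54 in WT OXA, and its call (adjusted p = 0.0449, limma) was lost with DESeq2 (0.0519), with a pseudocount of 5 (0.0622), with thinned reads (0.120) and without any 1 WT vehicle library, number 1, 2 or 3 of WT OXA or number 1, 2 or 3 of KO vehicle (0.0513 to 0.164). Tnfsf13b, which encodes the B cell survival factor BAFF, was 4.13, 20.1, 9.12 and 26.7 in WT vehicle and 64.2, 33.9, 47.5 and 38.3 in WT OXA, and rose by 1.79 ± 0.47 (log2, adjusted p = 0.0066, limma). Tgfbr2, a receptor chain for TGF-beta, the main signal for switching to IgA, rose by 0.78 ± 0.15 (log2, adjusted p = 0.000664, limma). Tgfb1 was 0.88 ± 0.36 (log2, adjusted p = 0.0666, limma) and did not pass. In KO, 0 of 13 passed with limma, edgeR and DESeq2, where 1.9% of all genes tested passed with limma, and 4 of the 13 had an unadjusted p under 0.05 with limma.

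The KO and WT effects differed for 1 of the 13, Tgfbr2 (-0.71 ± 0.22, adjusted p = 0.0291, limma), where 17.8% of all genes tested passed. That call was lost when a single library was left out in 7 cases, namely numbers 3 and 4 of WT vehicle, 1 and 2 of WT OXA, 1 and 4 of KO vehicle and 3 of KO OXA (adjusted p = 0.0522 to 0.0688, limma). Il10 rose by 3.39 ± 0.81 (log2, adjusted p = 0.00323, limma) in WT. In KO its difference was 2.80 ± 0.81 (log2, adjusted p = 0.0938, limma), which passed without KO vehicle replicate 4 (adjusted p = 0.0110), and the effects did not differ by the test (-0.59 ± 1.15). Tnfsf13, the gene of the survival factor APRIL, was listed at 0 in all 16 libraries. Igkc and Myd88 were listed at 0 throughout as well, so whether Tnfsf13 RNA was absent cannot be told from its 0.

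Homing genes moved in WT for 8 of 13 tested, 7 higher (Ccr6, Cxcl12, Cxcr4, Itga4, Itgb7, S1pr1 and Vcam1) and Ccl20 lower, where 34% of all genes tested passed and 18% rose. Cxcr4, a chemokine receptor that holds plasma cells in tissue and is found on many leukocytes, rose by 2.5 ± 0.35 (log2, adjusted p = 1.98e-05, limma). Itga4 and Itgb7, which form the integrin of mucosal lymphocytes, rose by 2.12 ± 0.37 (adjusted p = 0.000213) and 2.68 ± 0.44 (adjusted p = 0.000116, limma) on the log2 scale. Vcam1, the vessel ligand of such integrins, rose by 1.90 ± 0.28 (log2, adjusted p = 3.38e-05, limma).

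In KO, 2 of the 13 rose, where 1.9% of all genes tested passed: Cxcr4 by 1.51 ± 0.35 (log2, adjusted p = 0.0226, limma) and Itgb7 by 1.85 ± 0.44 (log2, adjusted p = 0.0306, limma). Both calls were lost when replicate 1 or 2 of KO OXA, or replicate 1 or 3 of KO vehicle, was left out, and that of Itgb7 also when replicate 4 of KO vehicle was. Both were also lost with no filter, with thinned reads and in a fit of the KO groups alone (adjusted p = 0.0509 to 0.149, limma). That of Itgb7 was lost with equal library totals too (adjusted p = 0.0625, limma). The mucosal IgA chemokine gene Ccl28 was at most 7.43 in every library, and its receptor gene Ccr10 at most 8.72. T cell markers rose as well, 8 of 10 with OXA in WT, where 18% of all genes tested rose, and Cd5 was lower. Their summed level was 182 to 324 in WT vehicle and 667 to 957 in WT OXA, and no defining marker of T cells was at 0 in WT OXA. The share of T cells in the homing result was not tested.

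On the side of epithelial transport, 10 of 14 tested genes that signal to Pigr rose with OXA in WT and none fell, where 18% of all genes tested rose, while Pigr itself stayed under the filter. Il4ra, the receptor chain shared by IL-4 and IL-13, was 85.4, 38.6, 74.8 and 80.2 in WT vehicle and 323, 357, 375 and 325 in WT OXA, and rose by 2.35 ± 0.24 (log2, adjusted p = 5.17e-07, limma). Irf1, a transcription factor induced by interferon, rose by 2.06 ± 0.31 (log2, adjusted p = 4.7e-05, limma) in WT and by 1.68 ± 0.31 (log2, adjusted p = 0.00353, limma) in KO. Ifng rose by 3.44 ± 0.68 (log2, adjusted p = 0.000669, limma) in WT, and Usf1 by 1.63 ± 0.33 (log2, adjusted p = 0.00076, limma).

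In KO, 3 of these 14 rose, Irf1 and Tlr3 among them, where 1.9% of all genes tested passed. Tlr3 rose by 1.20 ± 0.29 (log2, adjusted p = 0.0302, limma). The call of Tlr3 was lost when replicate 2 of KO OXA, or replicate 1, 2 or 4 of KO vehicle, was left out (adjusted p = 0.0564 to 0.132, limma). It was also lost with equal library totals (0.111), with no filter (0.0531), with thinned reads (0.0883) and in a fit of the KO groups alone (0.134, all limma). The KO effect was smaller than the WT effect for Il4ra (-1.93 ± 0.34, adjusted p = 0.000676, limma) and did not differ by the test for Irf1 (-0.38 ± 0.44, adjusted p = 0.595, limma). Pigr was 0 to 4.73 in KO OXA, where Irf1 had risen.

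The genes whose log2 values across the 16 libraries were most like Igha, by Pearson's r and passing over members and predicted genes, were Thbs1 (0.967), Rassf2 (0.955), Adap1 (0.940), Sh3kbp1 (0.934) and Fam49b (0.931). None is an immunoglobulin gene. The mean of Thbs1 was 402 in WT OXA against 72.9, 76.8 and 99.6 in WT vehicle, KO vehicle and KO OXA. The coefficients describe the separation of WT OXA from the other 3 groups, which also differ in depth, and carry no test. For Pigr the highest r was that of Ildr1, 0.838, and the lowest that of Ensa, -0.829, on values of a few reads.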

How the data were processed

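The authors deposited 1 table of gene counts divided by a size factor per library, a signal that is never negative; FastQC 0.11.5, Trim Galore, cutadapt 1.10, TopHat2 2.1.0, Bowtie2 2.2.6, HTSeq 0.6.1, DESeq2 1.28.0 and the build GRCm38 are named, per the submitters' processing notes. For the strand setting, the annotation release and any collapsing by molecular identifier, nothing was given in the sources used here. Whole reads were recovered from the values (100% of values within 0.1 of a read in every library).

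limma 3.58.1 in R 4.3.3 was fitted to log2(value + 1) with 1 mean per group over all 16 libraries and eBayes with a trend, two-sided, with Benjamini-Hochberg adjustment over 16748 genes and a threshold of 0.05. edgeR 4.0.16 and DESeq2 1.42.0 were run on the recovered reads, and the fit was tested on simulated data. Libraries were numbered within groups in the order of the labels, and the numbers pair nothing. The members and lists were chosen with earlier results of these data known. The lists were B cell identity, plasma cell and secretory genes, immunoglobulin constant genes, IgA switching and survival, homing and epithelial transport, with marker lists for lymphoid tissue and T cells. Genes named are the 9 members, a fixed set of immunoglobulin and B-lineage genes, and from each list up to 4 tested genes with the smallest p for OXA in WT and up to 3 in KO; others are named as called or as picked afterwards. The alternatives were other pseudocounts, filters, scaling, fits and tools, and each library left out. Some genes of the lists are counted with them but not reported here by name.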

Additional observations from a re-analysis of the deposited data

Results flagged for a closer look

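In groups of 4, a library was marked as far from the others where its gap to the nearest, divided by the range of the group, exceeded Dixon's 95% critical value for 4. For normally distributed values chance marks about 1 in 20 independent groups. The rule was applied here to unlogged values, and the groups are not independent, since the 17 B-lineage and immunoglobulin genes come from the same libraries. Of the 60 groups examined 24 were marked, a count that cannot be set against that rate.

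KO vehicle replicate 2 was the high library, with a gap-to-range ratio of 0.980 for Ighm, 0.954 for Jchain, 0.869 for Mzb1, 0.901 for Cd79a, 0.937 for Cd79b, 0.975 for Ms4a1, 0.986 for Ighd, 0.952 for Ighg1, 0.970 for Ighg2b, 0.988 for Ighg2c, 0.981 for Iglc1, 0.922 for Iglc2 and 0.955 for Iglc3. KO OXA replicate 2 was the high library, with a gap-to-range ratio of 0.988 for Ighm, 0.974 for Jchain, 0.938 for Mzb1, 0.997 for Ighg1, 0.956 for Ighg2b, 0.991 for Iglc1, 0.972 for Iglc2 and 0.868 for Iglc3. In WT, the ratio was 0.889 for Ighg1 in WT OXA replicate 3, 0.918 for Ighg2c in WT vehicle replicate 4 and 0.835 for Ighg2c in WT OXA replicate 4.

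The effect of OXA differed between KO and WT by the test of the difference itself for 2 members, by -5.65 (log2) for Igha and by -4.56 for Jchain. Igha was higher in 4 of 4 WT OXA libraries than in any WT vehicle library, and the KO groups overlapped.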

How the results depend on the processing

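No member's difference that passed the test changed sign under any alternative run. Igha passed in WT, in the difference between the KO and WT effects and under OXA in all alternatives, and Jchain passed in WT in all. The number of members that passed in WT was 2 or 3 in all alternatives, and 0 passed in KO and under vehicle in all. For the difference between the effects the number fell from 2 to 1, Jchain being lost, with no filter, with the robust fit, with edgeR and with DESeq2, and ranged from 1 to 2 when 1 library was left out. Under OXA it fell from 2 to 1 with the same 4 alternatives, and ranged from 1 to 3 when 1 library was left out. Leaving out both KO libraries that stood apart, and thinning all libraries to the shallowest depth, were chosen after seeing the data.

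With equal library totals in place of the deposited scaling, the median of all genes in WT moved from 0.10 to 0.41 (log2) and that of the difference between the effects from -0.10 to -0.53. The plasma cell list under OXA then had 2 of 15 higher and 6 lower in KO, against 4 and 3. Depth limits Cd79a, Cd79b, Ms4a1 and Pigr most, with 249, 244, 196 and 76 reads in all. The titles carry a letter and a digit that recur across groups (the KO libraries that stood apart both have the digit 3), but nothing says what the digit marks, and WT OXA has 2 libraries with the digit 1. The deviations of same-digit libraries from their group means correlated over 0.1 in 1 of 20 pairs (range -0.08 to 0.29). With the digit as a replicate block, also chosen after seeing the data, the number of members that passed was 3 in WT, 0 in KO, 2 for the difference between the effects, 2 under OXA and 0 under vehicle, as without it.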
